A study of Mus musculus with 6 samples.

Results

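The genes followed here write, keep, read and erase DNA methylation: *Dnmt1*, *Dnmt3a* and *Dnmt3b* (the DNA methyltransferases), *Uhrf1* (which brings DNMT1 to newly copied DNA), *Tet1*, *Tet2* and *Tet3* (the TET dioxygenases) and *Mbd2* (a reader of methylated CpG). They were taken by gene symbol from a table of RPKM, reads scaled to the length of the transcript and to the library total on genes, and are 8 of the 20856 genes with values. All 8 were found, and 7 of them were among the 11617 genes tested for a difference between genotypes. *Tet1* was too low to be tested. RNA was sequenced from 6 cell lines of C57BL/6 mouse liver tumors. Each tumor was started in adult hepatocytes by injecting plasmids into the tail vein, one carrying a *Myc* transposon and one, px330, carrying Cas9 and a guide RNA. The guide targeted *Trp53* (sgp53) for 3 lines, here *Myc*; sg*Trp53*, and *Kmt2c*, which encodes the histone methyltransferase MLL3 (sgMll3), for the other 3 lines, here *Myc*; sg*Kmt2c*. All lines carry the *Myc* transposon, none was treated, and neither genotype has both targeted genes intact, so each group serves only as the other's reference. By the study's methods each line came from a different mouse and was passaged until no fibroblasts were seen, and the lines are not isogenic. The sample sheets name sg*Kmt2c* replicates 2 and 3 as 2A and 2T1.

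DNA methylation is put on cytosines of CpG pairs. DNMT1, guided by UHRF1 to hemimethylated DNA behind the replication fork, copies the marks to the new strand, while DNMT3A and DNMT3B place marks on DNA that had none. TET enzymes oxidize methylcytosine with oxygen and 2-oxoglutarate, after which base excision repair or the next round of replication removes it, and proteins with a methyl-CpG binding domain such as MBD2 bring histone deacetylases to methylated promoters. In the normal liver *Dnmt1* and *Uhrf1* are known to be low in resting hepatocytes and to rise when the cells divide. Transcripts were measured here, and DNA methylation itself was not.

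Of the 7 genes tested, 0 reached an adjusted p-value under 0.05 between genotypes (limma, Benjamini-Hochberg), against 0.129% of all genes tested (15 of 11617). That share is itself small and depends on single lines. The 15 calls fell to 8 when sg*Kmt2c* replicate 1 was left out and to 0 when any one of the other 5 lines was (limma, with 563 to 1477 genes at an unadjusted p-value under 0.05). At an unadjusted p-value under 0.05 there were 0 of the 7, against 8.58% of all genes (997). The sg*Kmt2c* and sg*Trp53* lines overlapped for all 8 genes, whereas 16.2% of the genes tested had lines that did not overlap. The median log2 fold change of the 7 genes, sg*Kmt2c* minus sg*Trp53* on the scale of log2(RPKM + 1), was -0.24, with 6 lower and 1 higher, and that of all genes tested was -0.09. Without sg*Kmt2c* replicate 1 both medians were -0.04. The genes differed instead from line to line within the sg*Kmt2c* group, as the plot of each gene by line shows.

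**Figure D1:**
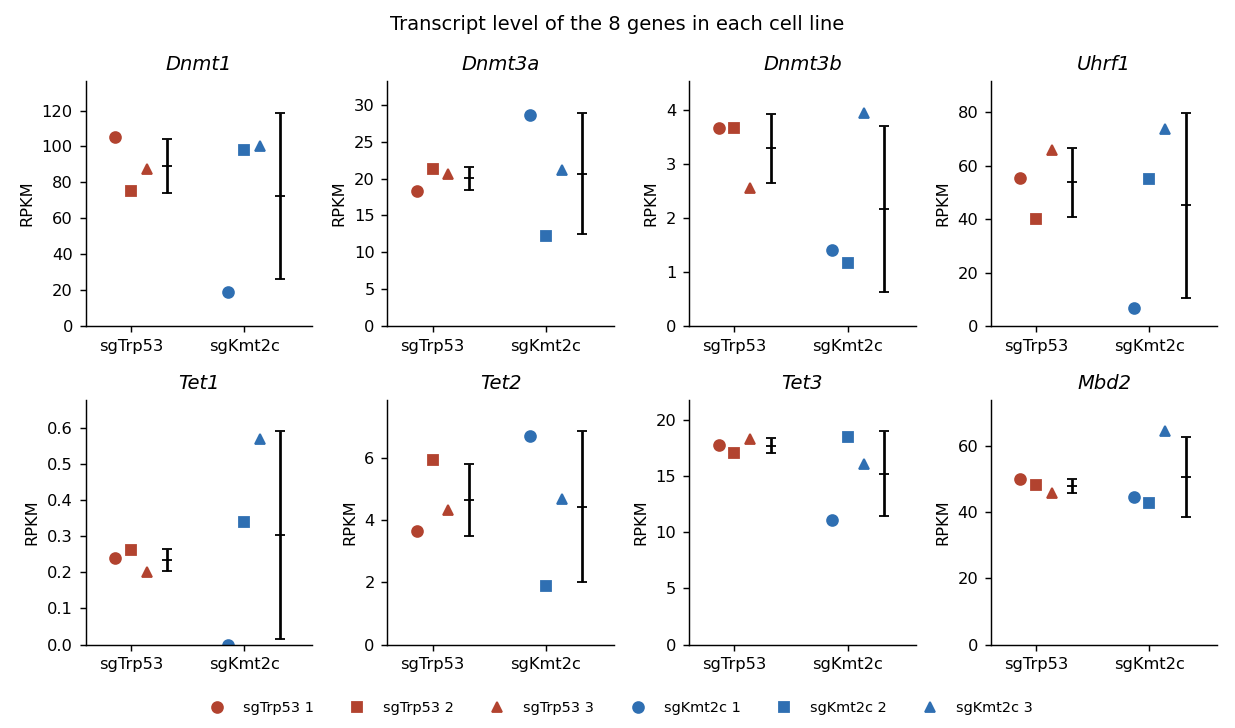
RPKM (y axis, starting at 0, a scale of its own for each gene) of the 8 genes in the 3 sgTrp53 lines (red) and 3 sgKmt2c lines (blue), with the replicate number given by the marker and the mean ± SD of each genotype as a black bar. The genotypes overlap in every panel, the sgKmt2c lines are the more spread in all 8, and sgKmt2c replicate 1 stands far below the other 5 lines for Dnmt1 (18.9 RPKM) and Uhrf1 (6.75 RPKM).

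The libraries held 5312182 to 6878625 reads on genes in the sg*Trp53* lines and 3680068 to 4704539 in the sg*Kmt2c* lines, so a single read on a 2 kb transcript was worth 0.0726 to 0.136 RPKM. *Trp53* ranged from 17.2 to 19.4 RPKM among the sg*Trp53* lines and from 92.2 to 124 among the sg*Kmt2c* lines, in the direction of the labels (log2 fold change 2.56, adjusted p = 0.0140, limma). *Kmt2c* overlapped, at 18.4 to 24.2 RPKM in the sg*Trp53* lines and 9.51 to 24.97 in the sg*Kmt2c* lines, so its transcript level does not check the sg*Kmt2c* labels. The lines had little of the defining hepatocyte transcript *Alb* (albumin), at 0.64 to 4.36 RPKM. The hepatocyte list summed to 9.73 to 36.0 RPKM in the sg*Trp53* lines and 2.11 to 1248 in the sg*Kmt2c* lines, and the biliary and progenitor list to 90.9 to 1008 and 91.5 to 3468. Of the 4 hepatocyte genes tested and the 5 biliary, 0 passed. The fibroblast list summed to 2773 to 4310 RPKM against 2237 to 4962, most of it *Vim* (2116 to 4806 RPKM), a gene of many cultured cells. In sg*Trp53* replicate 2 *Vim* was 2772 of 3767 RPKM, and the collagen gene *Col3a1* was 814 RPKM. Of the 6 fibroblast genes tested 5 were lower and 1 was higher, with a median log2 fold change of -1.50 (-0.47 without sg*Kmt2c* replicate 1) and 0 passing in limma, and 5 were lowest in sg*Kmt2c* replicate 1. *Col1a1* and *Col1a2*, collagen chains, had means of 20.9 ± 19.5 and 64.0 ± 56.5 RPKM in the sg*Trp53* lines against 1.32 ± 0.968 and 4.45 ± 4.47 (SD, n = 3 lines each), with overlap between genotypes. Other fibroblast genes followed this less. *Col3a1* gave 3.37, 814 and 22.4 RPKM for the sg*Trp53* replicates against 0.0672, 115 and 92.9 RPKM for the sg*Kmt2c* replicates. *Pdgfrb*, a growth factor receptor, gave 0.970, 32.7 and 18.1 RPKM against 0, 23.4 and 10.4 RPKM. The immune list summed to 20.03 to 49.8 RPKM against 5.35 to 14.2, and endothelial markers were near 0 (at most 0.15 RPKM each). *Lyz2*, a lysozyme of myeloid cells, was the one marker tested whose lines did not overlap, at 29.0, 17.1 and 45.3 RPKM for the sg*Trp53* replicates against 0, 0.21 and 12.4 RPKM (adjusted p = 0.427, limma). Lower values without overlap were found for 10.4% of all genes tested. *Cd68*, the other immune marker tested, overlapped, at 7.60, 2.60 and 4.01 RPKM against 5.35, 5.29 and 1.71 RPKM (log2 fold change -0.17). The T cell marker *Cd3e* had no reads. Among markers too low to be tested, *Dcn* (7.39, 0.897 and 8.16 RPKM against 0, 0 and 0.248), *Adgre1* and *Cdh5* (each under 0.5 RPKM in all lines) had lines that did not overlap, with lower values in the sg*Kmt2c* lines. *Cdh5* rested on 1, 1 and 4 reads against 0, 0 and 0, and the sg*Kmt2c* libraries held fewer reads. At that level a lack of overlap does not show a difference. The highest hepatocyte and biliary sums both belonged to sg*Kmt2c* replicate 1, the line with the lowest *Dnmt1* and *Uhrf1*. Nearly all of that hepatocyte sum was a single gene, *Hnf4a*, at 1186 RPKM from 2409 reads over a listed length of 431 bases. The next highest there, *Fgb*, *Afp*, *Ttr* and *Alb*, were at 20.1, 19.3, 14.1 and 4.36 RPKM. *Hnf4a* was also most of the hepatocyte sum in sg*Kmt2c* replicate 3 (170 of 205 RPKM). The part of cell state or cell type in the values that follow was not tested, and in bulk RNA fewer cells of a type and less RNA per cell cannot be told apart.

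The maintenance pair was abundant in 5 of the 6 lines and low in one. *Dnmt1*, the methyltransferase that copies existing marks (chr9:20907206-20959888 in the file's build, GRCm38), gave 105, 75.0 and 87.7 RPKM for sg*Trp53* replicates 1, 2 and 3, and 18.9, 97.8 and 100.4 RPKM for sg*Kmt2c* replicates 1, 2 and 3. sg*Kmt2c* replicate 1 lay 3.96-fold under the next-lowest line, on 468 reads with a 95% counting interval of 17.2 to 20.7 RPKM (exact Poisson, counting error only), while the other two sg*Kmt2c* lines lay inside the sg*Trp53* range. The means were 89.2 ± 15.1 RPKM in the sg*Trp53* lines and 72.4 ± 46.3 RPKM in the sg*Kmt2c* lines (SD, n = 3 lines each). On the log2 scale the difference came to -0.61 (standard error 0.630, 95% confidence interval -2.12 to 0.89, adjusted p = 0.772, limma). An exact two-sided permutation test gave p = 0.8, where 3 lines against 3 cannot go below 0.1. Without sg*Kmt2c* replicate 1 the sign turned, to 0.16 (95% confidence interval -0.32 to 0.65).

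*Uhrf1*, which recognizes hemimethylated CpG and recruits DNMT1 (chr17:56303321-56323486), gave 55.5, 40.2 and 65.8 RPKM for the sg*Trp53* replicates, in the same order, and 6.75, 54.99 and 73.8 RPKM for the sg*Kmt2c* replicates. The same line, sg*Kmt2c* replicate 1, was again the lowest, 5.96-fold under the next, on 114 reads, and sg*Kmt2c* replicate 3 was the highest of all 6. The means were 53.8 ± 12.9 and 45.2 ± 34.6 RPKM (SD, n = 3 lines each), for a log2 fold change of -0.75 (standard error 0.828, 95% confidence interval -2.73 to 1.23, adjusted p = 0.784, limma). Leaving out sg*Kmt2c* replicate 1 turned it to 0.27 (95% confidence interval -0.38 to 0.92). Both intervals over all 6 lines held more than a 2-fold difference in the lower direction, so with 3 lines a change of that size could not be told from none. *Dnmt1* and *Uhrf1* were 2 of the 7 genes tested that were lowest in sg*Kmt2c* replicate 1 by at least 2-fold, and 9.7% of all genes tested were. In the other 5 lines that share was 0.267% to 2.65%.

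The windows around the annotated start sites of this pair are shown because the pair was low in the same line and because both hold a letter string known as a binding site of E2F, the family of factors that drives genes of DNA replication. Windows run from 250 bases before to 50 bases after a start and come from RefSeq (GRCm38.p6); 7 of the 8 genes had an entry, with 12 windows in all. The letters searched were TTTCCCGC, TTTGGCGC, TTTCGCGC and TTTGCCGC on both strands, and matches stand in capitals. The start of the third *Dnmt1* window lies inside the span given for the gene, and the window is chr9:20952574-20952873 on the minus strand. It held TTTCGCGC on the opposite strand, beginning 219 bases before the start, and TTTGGCGC on the gene's own strand 33 bases after it, with no overlap between them. The second *Uhrf1* window, chr17:56304063-56304362 on the plus strand, held TTTCGCGC on its own strand 185 bases before the start. The only *Dnmt3b* window, chr2:153649199-153649498 on the plus strand, is given as a contrast without a match. Sequences are written 5′ to 3′ on the gene's strand.
Dnmt1 window 3: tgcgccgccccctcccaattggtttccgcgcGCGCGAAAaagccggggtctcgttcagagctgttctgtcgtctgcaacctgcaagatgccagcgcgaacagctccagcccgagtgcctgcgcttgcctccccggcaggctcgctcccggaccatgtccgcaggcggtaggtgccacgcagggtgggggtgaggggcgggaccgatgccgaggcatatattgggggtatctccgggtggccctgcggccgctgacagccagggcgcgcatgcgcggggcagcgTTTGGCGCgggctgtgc
Uhrf1 window 2: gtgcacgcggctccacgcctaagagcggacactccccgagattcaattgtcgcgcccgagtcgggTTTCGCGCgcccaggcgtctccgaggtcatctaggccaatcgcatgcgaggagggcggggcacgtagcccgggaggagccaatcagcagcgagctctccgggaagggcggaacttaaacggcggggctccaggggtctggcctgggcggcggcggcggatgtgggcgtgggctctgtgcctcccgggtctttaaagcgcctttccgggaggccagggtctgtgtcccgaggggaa
Dnmt3b window: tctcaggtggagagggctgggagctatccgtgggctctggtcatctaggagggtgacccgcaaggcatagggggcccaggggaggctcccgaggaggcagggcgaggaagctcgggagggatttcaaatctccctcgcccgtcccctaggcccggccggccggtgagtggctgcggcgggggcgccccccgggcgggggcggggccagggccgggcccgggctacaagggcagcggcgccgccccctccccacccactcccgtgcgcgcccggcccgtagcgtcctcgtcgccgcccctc
No other window of these genes held any of the 4 strings, which says only that these letters are not in it. Of all 32851 RefSeq windows, 2.26% held at least one, and of all 27025 genes 2.60%. Each of the 4 strings contains a CpG pair, and these shares were not taken among windows as rich in CpG as those shown. Among 16 genes of S phase listed for comparison 13 had a window and 6 a match. The matches are a description of letters and not of binding. CpG pairs, the substrate of these enzymes, numbered 33 in each of the *Dnmt1* and *Uhrf1* windows shown, 30 in that of *Dnmt3b*, 57 in that of *Tet2*, 46, 47 and 18 in the windows of *Dnmt3a*, 22 in that of *Tet3* and 17 in that of *Tet1*, against a median of 7 over all windows. The remaining windows held fewer, 2 and 12 in the first and second of *Dnmt1* and 12 in the first of *Uhrf1*.

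Genes of S phase were also low in the line that was low in the maintenance pair. They include the MCM helicase subunits, the clamp *Pcna*, enzymes of nucleotide synthesis and cyclins of the G1 to S transition. All 16 were tested and 0 passed in limma, also at an unadjusted p-value under 0.05 (median log2 fold change -0.61, with 14 lower and 2 higher, and 0.05 without sg*Kmt2c* replicate 1). Of the 16, 15 were lowest in sg*Kmt2c* replicate 1, where 35.4% of all genes tested were, and 11 were lowest there by at least 2-fold, against the 9.7% given above. In those 15, taken because they were lowest in that line, the next-lowest line was 1.28-fold to 20.7-fold above it, with a median of 3.73-fold. The list summed to 1271 to 1363 RPKM in the sg*Trp53* lines, and to 457 RPKM in sg*Kmt2c* replicate 1, 1295 in replicate 2 and 1626 in replicate 3. *Rrm2*, a subunit of ribonucleotide reductase, was the exception and is named after its values were seen. It was at 84.9 RPKM in sg*Kmt2c* replicate 1, inside the range of the sg*Trp53* lines (72.9 to 85.8). Whether the share of cycling cells has a part in the low *Dnmt1* and *Uhrf1* of that line was not tested.

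**Figure D2:**
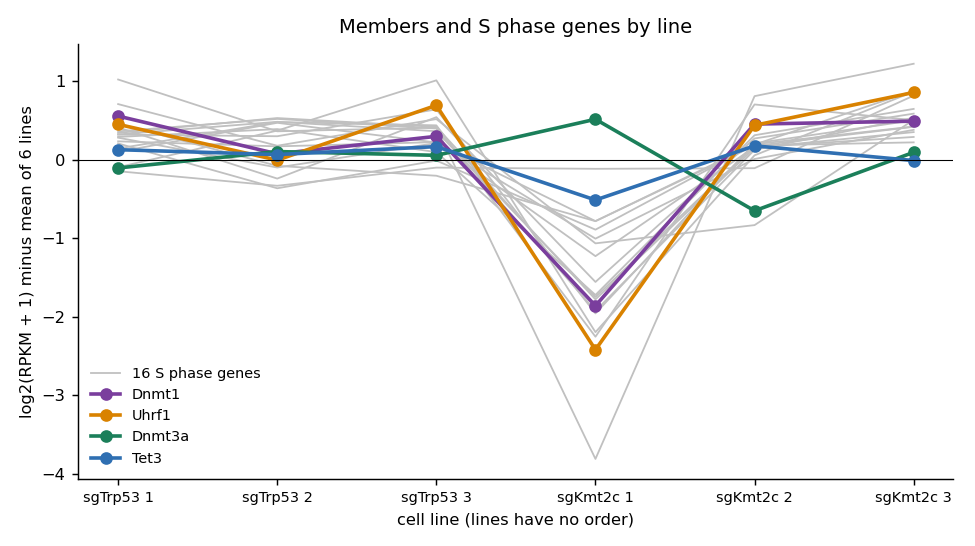
log2(RPKM + 1) of each gene minus its mean over the 6 lines (y axis) in each line (x axis; lines are joined only to follow a gene), for the 16 S phase genes (grey), Dnmt1, Uhrf1, Dnmt3a and Tet3. In sgKmt2c replicate 1 Dnmt1 and Uhrf1 drop together with 15 of the 16 S phase genes, Tet3 drops less, and Dnmt3a is at its highest, 28.7 RPKM.

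The de novo writers did not share the low value of that line in the same way. *Dnmt3a* (chr12:3806007-3914443), the more abundant of the pair, gave 18.3, 21.3 and 20.6 RPKM for the sg*Trp53* replicates against 28.7, 12.2 and 21.2 RPKM for the sg*Kmt2c* replicates. Its highest line was sg*Kmt2c* replicate 1, the one lowest in *Dnmt1*, and its lowest was sg*Kmt2c* replicate 2. The group means were nearly equal, 20.1 ± 1.57 against 20.7 ± 8.22 RPKM (SD, n = 3 lines each), while the sg*Kmt2c* lines were the more spread. The log2 fold change of *Dnmt3a*, -0.03, had a 95% confidence interval of -0.79 to 0.73, which does not reach a 2-fold difference in either direction (standard error 0.319, adjusted p = 0.978, limma). Leaving out sg*Kmt2c* replicate 2 moved it to 0.29 and leaving out replicate 1 to -0.30.

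*Dnmt3b* (chr2:153649450-153687730), a de novo enzyme that is abundant in early embryos, was low in all lines. Its values were 3.66, 3.66 and 2.55 RPKM for the sg*Trp53* replicates and 1.41, 1.16 and 3.95 RPKM for the sg*Kmt2c* replicates. Both the lowest and the highest value belonged to sg*Kmt2c* lines, and replicates 1 and 2 lay under every sg*Trp53* line. Those values rest on 28 and 18 reads, with a 95% counting interval of 0.688 to 1.83 RPKM for replicate 2. The means were 3.29 ± 0.641 and 2.17 ± 1.54 RPKM (SD, n = 3 lines each), a log2 difference of -0.53 (standard error 0.388, 95% confidence interval -1.45 to 0.40, adjusted p = 0.717, limma). An exact two-sided permutation test gave p = 0.4. The log2 difference of *Dnmt3b* kept its sign with each line left out, at -0.90 to -0.30. At such low values the added 1 shrinks differences toward 0. With 0.1 added instead, the difference was -0.76 (95% confidence interval -2.07 to 0.55, limma). Read as a ratio within each line, *Dnmt3b* came to 0.200, 0.172 and 0.124 of *Dnmt3a* for the sg*Trp53* replicates, and to 0.0493, 0.0949 and 0.187 for the sg*Kmt2c* replicates. The ratio was lowest in sg*Kmt2c* replicate 1, where *Dnmt3a* was highest, and the groups overlapped (log2 difference -0.76, exact two-sided permutation p = 0.3). It was taken on RPKM with nothing added, so it is not on the scale of log2(RPKM + 1).

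Put together, the methyltransferase transcripts had one make-up in 5 lines and another in the sixth. *Dnmt1* made up 82.7%, 75.0% and 79.1% of the summed RPKM of the 3 *Dnmt* genes for the sg*Trp53* replicates, and 87.95% and 79.99% for sg*Kmt2c* replicates 2 and 3. In sg*Kmt2c* replicate 1 it made up 38.6% and *Dnmt3a* exceeded it, at 1.52 times its RPKM, where the ratio was 0.125 to 0.284 in the other lines. The share did not separate the genotypes (exact two-sided permutation p = 0.9). *Uhrf1* stayed closer to *Dnmt1*, at 0.528, 0.536 and 0.750 of its RPKM for the sg*Trp53* replicates and 0.357, 0.562 and 0.735 for the sg*Kmt2c* replicates. These shares compare genes per length and depend on the one transcript length that the table uses for each gene, and the *Dnmt1* and *Uhrf1* ratios were chosen after the values were seen.

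**Figure D3:**
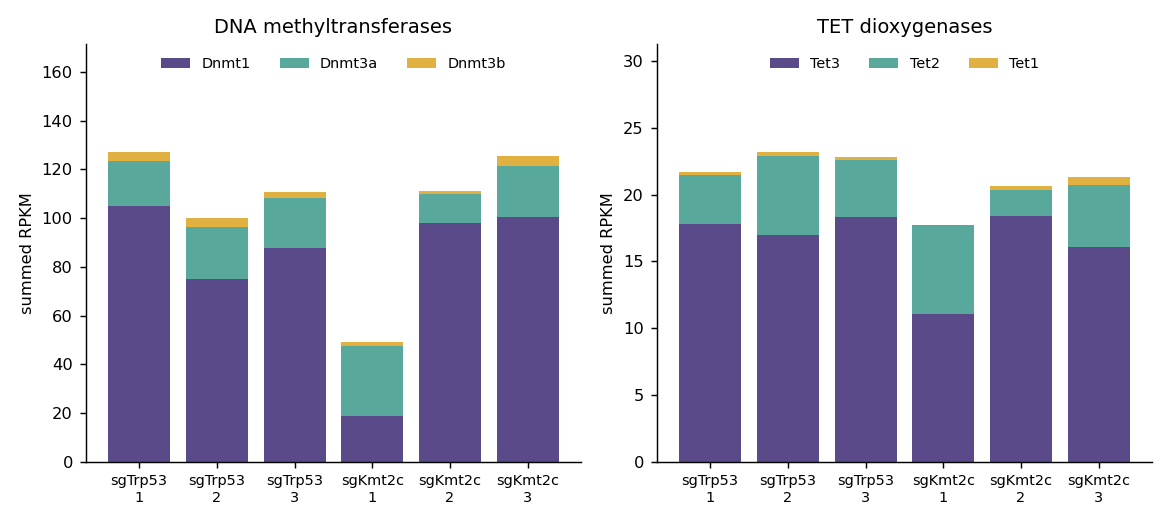
Summed RPKM (y axis, starting at 0) of Dnmt1, Dnmt3a and Dnmt3b (left) and of Tet3, Tet2 and Tet1 (right) in each of the 6 lines, stacked by gene, one bar for each library with no error bar. The methyltransferase bar of sgKmt2c replicate 1 is 49.0 RPKM high, against 99.96 to 127 in the other lines, mostly through Dnmt1, while the TET bars run from 17.8 to 23.2 RPKM.

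Among the erasers *Tet3* dominated in every line. *Tet3* (chr6:83362373-83459084), the TET enzyme known from the oocyte and from many differentiated tissues, gave 17.8, 17.0 and 18.3 RPKM for the sg*Trp53* replicates and 11.1, 18.4 and 16.1 RPKM for the sg*Kmt2c* replicates. The sg*Trp53* lines lay close to each other, sg*Kmt2c* replicate 1 was the lowest line and sg*Kmt2c* replicate 2 the highest. The means were 17.7 ± 0.658 and 15.2 ± 3.77 RPKM (SD, n = 3 lines each), and the log2 difference was -0.24, with a 95% confidence interval of -0.81 to 0.34 that stays inside 2-fold (standard error 0.239, adjusted p = 0.771, limma). Without sg*Kmt2c* replicate 1 it was -0.04.

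*Tet2* (chr3:133463679-133545139), a TET enzyme often mutated in blood cancers, gave 3.66, 5.92 and 4.32 RPKM for the sg*Trp53* replicates against 6.70, 1.89 and 4.69 RPKM for the sg*Kmt2c* replicates. The sg*Kmt2c* lines held both ends, replicate 1 the highest and replicate 2 the lowest, on 290 and 64 reads. It thus stood in the order of *Dnmt3a* among the sg*Kmt2c* lines, and replicate 2 was also the lowest of the 6 for *Mbd2* and *Dnmt3b*. The group means were 4.63 ± 1.16 and 4.43 ± 2.42 RPKM (SD, n = 3 lines each), with a log2 fold change of -0.15 (standard error 0.412, 95% confidence interval -1.13 to 0.84, adjusted p = 0.922, limma). It was 0.25 without sg*Kmt2c* replicate 2 and -0.45 without replicate 1.

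*Tet1* (chr10:62804570-62899118), the TET enzyme of pluripotent and germ cells, was close to the limit of detection. The sg*Trp53* replicates had 0.240, 0.262 and 0.202 RPKM, from 21, 20 and 20 reads. The sg*Kmt2c* replicates had 0, 0.340 and 0.570 RPKM, from 0, 18 and 35 reads. A count of 0 in sg*Kmt2c* replicate 1 allows up to 3 reads, or 0.0443 RPKM, which is below every other line. The sg*Kmt2c* lines lay on both sides of the sg*Trp53* lines, and an exact two-sided permutation test gave p = 0.7. *Tet1* did not reach 1 RPKM in any line and so was not tested with the others. Fitted with no filter on low values, it had a log2 fold change of 0.05 (standard error 0.174, 95% confidence interval -0.37 to 0.47, adjusted p = 0.921, limma). That fit is on log2(RPKM + 1), where the added 1 is larger than every *Tet1* value and shrinks differences toward 0. The interval therefore does not exclude a 2-fold change in *Tet1*.

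*Tet3* made up 82.0%, 73.3% and 80.2% of the summed TET transcripts for the sg*Trp53* replicates and 62.2%, 89.2% and 75.3% for the sg*Kmt2c* replicates. The share was lowest where *Tet2* was highest, in sg*Kmt2c* replicate 1 (*Tet2* 37.8%), and highest where *Tet2* was lowest, in sg*Kmt2c* replicate 2 (*Tet2* 9.15%). The genotypes overlapped, with a log2 difference of the *Tet3* share of -0.07 (exact two-sided permutation p = 0.8), which became 0.06 without sg*Kmt2c* replicate 1. The summed TET transcripts, a quantity chosen after the values were seen, came to 21.7, 23.2 and 22.8 RPKM for the sg*Trp53* replicates and to 17.8, 20.7 and 21.3 RPKM for the sg*Kmt2c* replicates. Here the groups did not overlap, by a narrow margin, and the exact two-sided permutation p was 0.1, the smallest that this design allows. Of all single genes tested 10.4% did not overlap in this direction.

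*Mbd2*, the reader, had the smallest spread of the 8 genes, 1.51-fold between its highest and lowest line. Its values were 50.04, 48.1 and 45.9 RPKM for the sg*Trp53* replicates and 44.7, 42.8 and 64.4 RPKM for the sg*Kmt2c* replicates. sg*Kmt2c* replicate 3 was the highest and the other two sg*Kmt2c* lines lay just under the sg*Trp53* lines. The means were 48.0 ± 2.06 and 50.6 ± 12.002 RPKM (SD, n = 3 lines each), and the log2 fold change of 0.05 had the narrowest interval of the 7 genes, -0.46 to 0.56 (standard error 0.213, adjusted p = 0.947, limma). Without sg*Kmt2c* replicate 3 it was -0.13.

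**Figure D4:**
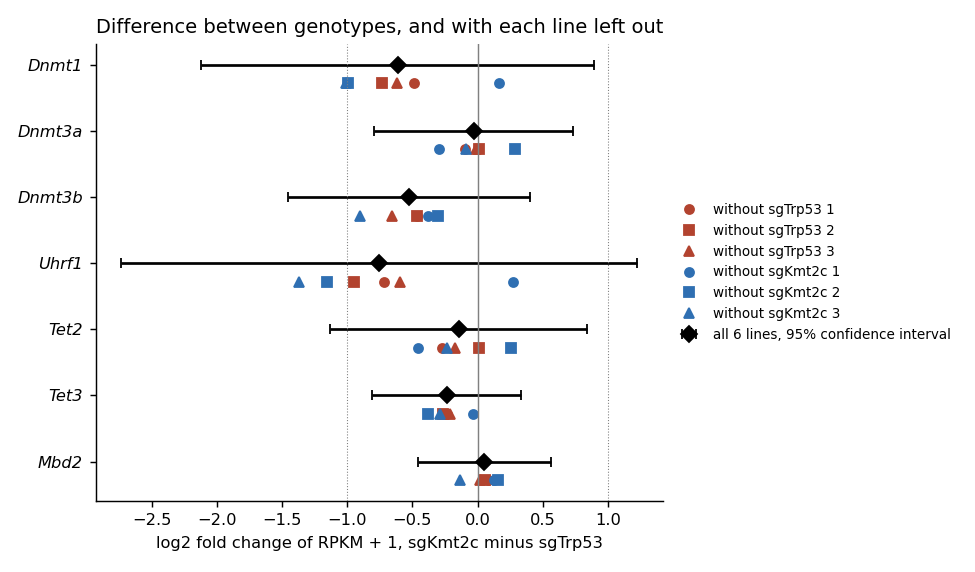
log2 fold change of RPKM + 1, sgKmt2c minus sgTrp53 (x axis), for the 7 genes tested (y axis), with diamonds and bars for all 6 lines and their 95% confidence interval from limma and small markers for the value with each line left out; dotted lines mark a 2-fold difference. Every interval crosses 0, only those of Dnmt3a, Tet3 and Mbd2 stay within 2-fold, and leaving out sgKmt2c replicate 1 moves Dnmt1 to 0.16 and Uhrf1 to 0.27.

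Across the 8 genes the lowest line was sg*Kmt2c* replicate 1 for 4 (*Dnmt1*, *Uhrf1*, *Tet1* and *Tet3*) and sg*Kmt2c* replicate 2 for the other 4, against 35.4% and 17.8% of all genes tested. The highest line was an sg*Kmt2c* line for 7, *Dnmt1* being the exception, against 54.8% of all genes tested. All 3 sg*Trp53* lines lay within the range of the sg*Kmt2c* lines for 7 of the 8 genes, as they did for 28.1% of all genes tested. The SD of log2(RPKM + 1) was larger among the sg*Kmt2c* lines for 8 of 8, which was also the usual case, at 70.7% of all genes tested. Ordered by mean RPKM in the sg*Trp53* lines, the genes ran *Dnmt1*, *Uhrf1*, *Mbd2*, *Dnmt3a*, *Tet3*, *Tet2*, *Dnmt3b* and *Tet1*. The neighbours *Uhrf1* and *Mbd2*, *Dnmt3a* and *Tet3*, and *Tet2* and *Dnmt3b* overlapped in their ranges there and were not separated by them, and the other neighbours did not overlap. Compared within each sg*Trp53* line, *Dnmt3a* was always above *Tet3*, while the order of the other overlapping pairs changed between lines. In the sg*Kmt2c* lines *Mbd2* stood before *Uhrf1* by the mean, and among neighbours only *Tet3* and *Tet2*, and *Dnmt3b* and *Tet1*, had ranges that did not overlap.

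The partners of these enzymes were read from lists of pathway genes. Of 12 partners of the writers 11 were tested and 0 passed in limma, with 1 at an unadjusted p-value under 0.05 (median log2 fold change -0.41, with 8 lower and 3 higher, and -0.19 without sg*Kmt2c* replicate 1). Lines did not overlap for 4, all lower in the sg*Kmt2c* lines, where 10.4% of all genes tested were. *Cdca7*, which works with the remodeler HELLS on methylation, gave 50.5, 58.0 and 52.4 RPKM for the sg*Trp53* replicates and 18.6, 49.2 and 42.8 RPKM for the sg*Kmt2c* replicates. All 3 sg*Kmt2c* lines lay under the sg*Trp53* lines, and replicate 1 was again far the lowest (log2 fold change -0.64, adjusted p = 0.658, limma). *Setdb1*, a histone H3 methyltransferase, gave 26.4, 34.3 and 27.9 RPKM for the sg*Trp53* replicates against 13.6, 19.7 and 24.3 RPKM for the sg*Kmt2c* replicates (log2 fold change -0.62, adjusted p = 0.580, limma). The others were *Ehmt1*, also a histone methyltransferase (log2 fold change -0.37), and the deacetylase *Hdac1* (-0.71). *Hells* and *Pcna*, named after their values were seen, overlapped between the genotypes and were lowest in sg*Kmt2c* replicate 1, at 9.58 RPKM (22.2 to 35.0 in the other lines) and 111 RPKM (225 to 291).

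**Figure D5:**
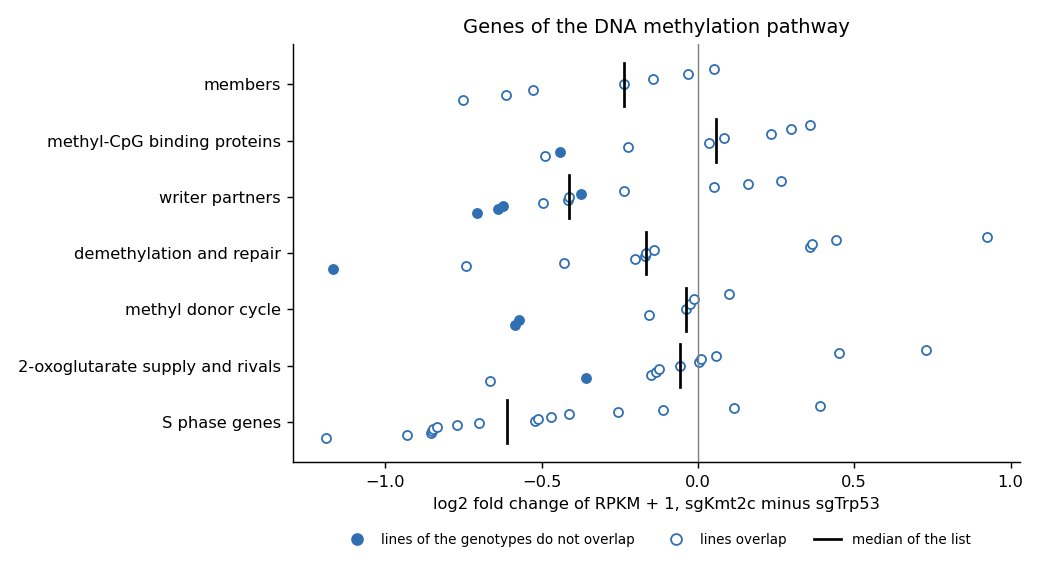
log2 fold change of RPKM + 1, sgKmt2c minus sgTrp53 (x axis), of each gene tested in 7 lists (y axis), filled where the lines of the genotypes do not overlap and open where they do, with the median of each list as a bar. The medians run from -0.61 for S phase genes to 0.06 for methyl-CpG binding proteins, and all filled points are on the side lower in the sgKmt2c lines. Of all genes tested, 10.4% did not overlap on that side and 5.72% on the other.

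Other readers and the enzymes after TET gave no call either. Among 8 further methyl-CpG binding proteins, all tested, 5 were higher and 3 lower with a median of 0.06 (0.07 without sg*Kmt2c* replicate 1). *Mbd1*, a reader that acts as a repressor, did not overlap, at 15.0, 15.0 and 15.2 RPKM for the sg*Trp53* replicates and 10.97, 10.7 and 10.9 RPKM for the sg*Kmt2c* replicates. Its lines were tight within each genotype, the log2 fold change was -0.44 and the adjusted p-value 0.580 (limma). It was 1 of the 8 that was lower without overlap, against 10.4% of all genes tested. Of 12 genes of demethylation and repair 11 were tested (median -0.16, with 7 lower and 4 higher, and -0.02 without sg*Kmt2c* replicate 1). *Neil2*, a DNA glycosylase that can act after TET and TDG, was counted 13, 14 and 17 times in the sg*Trp53* replicates and 0 times in each sg*Kmt2c* line. It reached the filter only through the sg*Trp53* lines (1.10, 1.36 and 1.28 RPKM), the group where it is high. Its test is therefore no support for a difference (adjusted p = 0.366, limma). Its sg*Trp53* mean was 3.36-fold above the level of 3 reads in each sg*Kmt2c* library, without the counting error of the sg*Trp53* reads. With so few reads *Neil2* lies at the edge of detection. It was 1 of the 11 lower without overlap, against 10.4% of all genes tested.

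The small molecules these enzymes need are set by other genes. Of 10 genes of the methyl donor cycle, which makes S-adenosylmethionine for the DNMTs, 7 were tested (median -0.04, with 6 lower and 1 higher, and 0.06 without sg*Kmt2c* replicate 1). *Ahcyl1*, a relative of the enzyme that clears S-adenosylhomocysteine, gave 95.7, 98.3 and 117 RPKM for the sg*Trp53* replicates against 74.6, 57.9 and 76.6 RPKM for the sg*Kmt2c* replicates (log2 fold change -0.57, adjusted p = 0.504, limma). *Mtrr*, which keeps methionine synthase active, was at 18.6, 15.1 and 14.9 RPKM against 8.97, 10.9 and 11.5 RPKM (log2 fold change -0.58, adjusted p = 0.542, limma). For both genes, 2 of the 7 tested, the lines did not overlap, and neither passed the threshold. Lower values without overlap were found for 10.4% of all genes tested. All 11 genes that supply or compete for 2-oxoglutarate were tested, with 5 higher and 6 lower and a median of -0.06, which turned to 0.13 without sg*Kmt2c* replicate 1. Of these only *Sdhc*, a subunit of succinate dehydrogenase, did not overlap (log2 fold change -0.36, adjusted p = 0.698, limma). That is 1 of 11, against the same 10.4% of all genes tested.

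Germline genes, which promoter methylation is known to keep silent in somatic cells, stayed near 0 in all lines. Of 15 listed 8 had values and 0 reached the filter. Their summed level was 0.183 to 1.02 RPKM in the sg*Trp53* lines and 0 to 0.211 RPKM in the sg*Kmt2c* lines, and the highest single value was 0.863 RPKM (*Ddx4*, a germ cell RNA helicase). In sg*Kmt2c* replicate 1, the line lowest in *Dnmt1* and *Uhrf1*, the sum was 0.

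Genes whose pattern over the 6 lines was most like each member were named by the highest Pearson r of log2(RPKM + 1), as a description. For *Dnmt1* these were *Nsun2*, an RNA methyltransferase (r = 0.999), and *Atad2* (r = 0.998). For *Uhrf1* they were the helicase *Dhx9* (0.995) and *Bend6* (0.994). All 4 share the low value of sg*Kmt2c* replicate 1, and without that line r was 0.975, 0.953, 0.927 and 0.938. For *Tet3* they were *Ttl* and *Gm5577* (0.998 and 0.997), for *Tet2* *Ykt6* and *Arf2* (0.996 and 0.992), and for *Dnmt3a* *Gtf2f2* and *Inafm2* (0.991 and 0.988). *Dnmt3b* was followed by *Nipsnap3b* and *Mfn1* (0.990 and 0.985) and *Mbd2* by *Zadh2* and *Nop9* (0.985 and 0.979). With 6 libraries such values are common, since 271 genes reached an r of 0.95 with *Dnmt1*, 255 with *Uhrf1*, 170 with *Tet3*, 57 with *Dnmt3b*, 39 with *Dnmt3a*, 27 with *Tet2* and 11 with *Mbd2*.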

How the data were processed

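RNA libraries (TruSeq RNA v2) of 3 sg*Trp53* and 3 sg*Kmt2c* lines, extracted as independent triplicates, were run in the same 2 lanes of 1 flow cell. The authors trimmed reads with Trimmomatic, aligned them to GRCm38 with STAR, counted them with HTSeq and deposited RPKM values, which their methods call FPKM, dividing by 1 transcript length for each gene. Strand use in counting is not given in the sources used here. Antisense or overlapping genes listed at *Dnmt3a*, *Dnmt3b* and *Tet3* had at most 1, 1 and 6 reads. The table has 21065 rows, 209 of them without values, 7 duplicated symbols and 6 sample columns of other samples, which were not used. A second deposited table holds the authors' own DESeq2 1.8.2 comparison (mean normalized count, log2 fold change, error, statistic, p-value and adjusted p-value) and was not used.

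RPKM times length gave whole reads for 100% of values (tolerance 0.05 of a read). No pair of replicates agreed within sampling noise (the smallest chi-square per gene was 26.5), so all were kept. Genotypes were compared with limma (version 3.58.1, R 4.3.3; lmFit, then trended eBayes) on log2(RPKM + 1). The 11617 genes that reached an RPKM of 1 in 3 or more libraries were tested, and p-values were adjusted over all of them by Benjamini-Hochberg. The fit was also run on simulated reads with large changes set in advance. That run does not show its power for small differences or for lines as spread as these. Single values were compared by exact two-sided permutation over the 20 splits. Genes named are the 8 members, list genes with an unadjusted p-value under 0.05 or lines that do not overlap, cell type markers, the targeted genes and the 2 genes most like each member. The members and lists were chosen with earlier results of these data known. Alternatives changed the pseudocount (0.1 and 0.5), filter, scaling, moderation, test, replicate block and lines left out. Plots were drawn with matplotlib 3.10.9 in Python 3.11.15.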

Additional observations from a re-analysis of the deposited data

How the results depend on the processing

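None of the 7 genes tested and none of the pathway genes passed an adjusted p-value of 0.05 (limma) under any of the 17 alternatives. Of 119 values of single members, 108 kept the direction reported (smallest adjusted p = 0.339 and smallest unadjusted p = 0.0288, both *Dnmt3b*, limma). The 11 that reversed were those of *Dnmt3a* (0.044 with median-of-ratios scaling, 0.015 with quantile scaling, 0.10 with sg*Kmt2c* replicates 2 and 3 as one sample, 0.29 without sg*Kmt2c* replicate 2, 0.01 without sg*Trp53* replicate 2), *Tet2* (0.0090, 0.25 and 0.01 under the last 3 of these), *Dnmt1* (0.16) and *Uhrf1* (0.27) without sg*Kmt2c* replicate 1, and *Mbd2* (-0.13) without sg*Kmt2c* replicate 3. With each line left out, the values ran from -1.01 to 0.16 for *Dnmt1*, -1.37 to 0.27 for *Uhrf1*, -0.296 to 0.29 for *Dnmt3a*, -0.45 to 0.25 for *Tet2* and -0.13 to 0.16 for *Mbd2*. The log2 difference of the *Tet3* share ran from -0.196 to 0.064 with each line left out, the 0.064 without sg*Kmt2c* replicate 1. The *Dnmt3b* to *Dnmt3a* difference ran from -1.25 to -0.29. The 15 genes called overall became 6 with an RPKM of at least 1 in all libraries, 4 with limma voom, 5 with no filter and 6 with a pseudocount of 0.1, and 0 to 8 with each line left out. With a replicate block the count was 0 (1085 at an unadjusted p-value under 0.05), and with sg*Kmt2c* replicates 2 and 3 as one sample it was 0 (1053). The cause of these moves was not tested.

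Taken as deviations from their genotype mean over the genes tested, same-numbered lines correlated at 0.19, 0.40 and 0.03. Lines of different number correlated at -0.28 to 0.15. Whether same-numbered lines share more than a number was not tested. Under the block *Dnmt1* was at -0.61 (adjusted p = 0.749, limma) and the median of the 7 genes at -0.24. Only 3 lines a genotype and confidence intervals that reach beyond 2-fold for *Dnmt1*, *Uhrf1*, *Dnmt3b* and *Tet2* limit what could be seen, and 18 to 94 reads for *Dnmt3b* and 0 to 35 for *Tet1* limit those genes further.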
